A study of Mus musculus with 39 samples.

Results

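Described here are 8 mouse genes that encode enzymes of steroid hormone and bile acid metabolism: Hsd3b2, Hsd3b3, Hsd3b5 and Hsd3b7 of the 3β-hydroxysteroid dehydrogenase family, and the glucocorticoid-processing genes Hsd11b1, H6pd, Srd5a1 and Akr1d1. They were taken by symbol from the 45706 genes common to all count files, and all 8 were found. Hsd3b5 was chosen by its measured levels in Cort-treated and untreated livers of both genotypes, so its values in every comparison that includes those livers are given as a description, without a test. The study sequenced poly(A) RNA of 39 samples in 12 groups to ask how the transcription factor E47, encoded by Tcf3, shapes the response of liver, fat and muscle to glucocorticoids. All mice were adult C57BL/6 males on chow. Global knockouts (E47-/-, called E47KO) were compared with E47+/+ wildtype littermates (WT) in untreated livers (6 E47KO and 5 WT), in livers after 3 weeks of corticosterone (Cort) at 100 µg/ml in the drinking water (4 and 4), and after 3 weeks of dexamethasone (Dex) at 10 µg/ml. The Dex mice gave livers (3 and 2), quadriceps muscles (3 and 2) and epididymal fat (white adipose tissue or WAT, 2 and 2). In a further experiment, livers were taken 1 h after an injection of Dex at 1 mg/kg. There, 3 mutants (Albcre/+;E47fl/fl, called E47LKO) carried a Cre recombinase driven by the albumin promoter, which acts in hepatocytes, and 3 controls carried a floxed E47 allele without Cre, on 1 chromosome in 1 mouse and on both in the other two.

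Hsd3b enzymes oxidise the 3β-hydroxyl group of steroids, a step needed to make progesterone, glucocorticoids and androgens in the adrenal gland and gonads, while some rodent liver forms, Hsd3b5 among them, run in the other direction and reduce 3-ketosteroids to inactive products. Hsd3b5 is known as a gene expressed more in male than in female mouse liver under the pulsatile growth hormone pattern of males. Hsd11b1 regenerates active corticosterone from its inert 11-keto form inside the endoplasmic reticulum, with NADPH supplied there by H6pd, whereas the 5α-reductase Srd5a1 and the 5β-reductase Akr1d1 start the clearance of glucocorticoids and other ketosteroids. Hsd3b7 and Akr1d1 also act in the synthesis of bile acids from cholesterol.

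Libraries held between 15.5 M and 54.6 M counts in genes (M stands for mega). All 16 hepatocyte markers were above 1 CPM (the read count scaled by effective library size, in counts per M) in every liver group, with sums of 118060 to 203670 CPM, against 4905 to 9883 CPM in WAT and 9.66 to 332 CPM in muscle. The 12 skeletal muscle markers summed to 0.867 to 482 CPM in liver libraries. Tcf3 counts overlapped between genotypes in all 6 experiments, and gene-level counts of Tcf3 do not check the genotype. Mice treated for 3 weeks were killed after a glucose tolerance test and untreated mice were not. The 3-week Dex libraries were also made with another kit. The Cort libraries, although labelled stranded, split 50.05 to 50.1% between strands, against 96.9 to 97.5% in untreated livers. Treatment, test and kit or library type thus cannot be told apart in any comparison of treated with untreated livers. Doses of Cort and Dex differed, so levels under them are set side by side without a comparison, and the 1 contrast made between them, of genotype effects, has dose and kit in it. Fewer cells of a type and less RNA per cell cannot be told apart in these bulk samples.

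The genes Hsd3b5, Hsd3b2 and Hsd3b3 lie next to each other on the minus strand of chromosome 3 of mm10, at 98618634 to 98630252, 98709255 to 98724543 and 98741523 to 98763127. Hsd3b7 lies on chromosome 7 (127800604 to 127803802, plus strand), Hsd11b1 on chromosome 1 (193221634 to 193264075, minus), H6pd on chromosome 4 (149979475 to 150009023, minus), Srd5a1 on chromosome 13 (69573449 to 69611442, minus) and Akr1d1 on chromosome 6 (37530173 to 37568815, plus). Coding sequences of Hsd3b5 and Hsd3b2 (1119 bases each) were 80.8% identical, those of Hsd3b2 and Hsd3b3 were 95.1% identical, and Hsd3b7 shared 55.4% with Hsd3b5. Of the stretches of 50 bases in the transcripts, 21.2% in Hsd3b5, 25.1% in Hsd3b2 and 6.69% in Hsd3b3 also occurred in another gene. The share was 50.7% in Hsd3b7 and 15.1% in Srd5a1 (in Gm17108). For Hsd3b7 the other gene is Gm49388, a predicted gene whose exons overlap it on the same strand. The levels of these genes are uncertain to the extent that reads were split or dropped. The count files do not hold Gm49388, so no Hsd3b7 read was counted for it. The near copies of Hsd3b5, Hsd3b4 and the predicted genes Gm10681 and Gm4450, held at most 3 counts in any library. In Hsd3b4, however, 100% of the stretches of 50 bases also occurred in another gene. Its coding sequence was 100% identical to that of Gm10681 and 99.6% to that of Gm4450. Low counts of these 3 genes therefore cannot show that they were not expressed. Exons of Hsd3b2 and Hsd3b3 also overlap those of Zfp697 on the opposite strand, and in the 17 strand-resolved libraries the strand column gave a median of 1.32 times the unstranded count for Hsd3b3 and 1.08 times for Hsd3b2, while all ratios of the other 6 genes lay between 0.997 and 1. These genes outside the list were chosen for shared sequence or position, not for their values.

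The bases just before the RefSeq transcription starts of Hsd3b5, Hsd3b3 and Hsd3b2 are shown because these 3 neighbours of 1 family had lower fitted levels in treated than in untreated livers to unequal degrees. The sequences are 250 bases each from RefSeq (GRCm38.p6), minus strand, at chr3:98645535-98645784, chr3:98763129-98763378 and chr3:98724544-98724793, and the RefSeq start of Hsd3b5 lies upstream of the gene model that was counted. Capitals mark matches, on either strand, to the E-box bound by E47 (CANNTG), the STAT5 site of growth hormone signalling (TTCNNNGAA) or the short site of the glucocorticoid receptor (AGAACA or its reverse complement TGTTCT).
Hsd3b5: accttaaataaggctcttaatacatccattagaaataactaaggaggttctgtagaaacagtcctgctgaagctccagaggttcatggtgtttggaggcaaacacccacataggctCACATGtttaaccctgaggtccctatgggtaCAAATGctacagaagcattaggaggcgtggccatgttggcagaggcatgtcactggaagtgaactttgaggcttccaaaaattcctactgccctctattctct
Hsd3b3: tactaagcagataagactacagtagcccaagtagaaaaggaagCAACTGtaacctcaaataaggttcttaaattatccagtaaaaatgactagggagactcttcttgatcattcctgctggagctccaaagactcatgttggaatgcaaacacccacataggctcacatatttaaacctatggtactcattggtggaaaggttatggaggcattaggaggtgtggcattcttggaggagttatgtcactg
Hsd3b2: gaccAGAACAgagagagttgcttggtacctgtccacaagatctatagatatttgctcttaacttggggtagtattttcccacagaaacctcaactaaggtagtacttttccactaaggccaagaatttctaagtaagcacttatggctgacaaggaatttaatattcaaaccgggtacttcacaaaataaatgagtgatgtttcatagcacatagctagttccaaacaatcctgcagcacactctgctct
Hsd3b5 held 2 E-boxes, 134 and 103 bases before the start, Hsd3b3 held 1 at 207 bases, and Hsd3b2 held a receptor site at 246 bases and no E-box. The upstream sequences of Hsd3b5 and Hsd3b3 aligned over 203 columns with 153 identical bases (75.4%), whereas that of Hsd3b2 aligned to them over 31 and 38 columns. Among all 8 genes, 6 held an E-box in the window, 1 (Hsd3b7) a STAT5 site and 2 (Hsd3b2 and H6pd) a receptor site, and Srd5a1 held none of the 3 motifs. Of 32851 mouse promoters of the same length, 66.2% held an E-box, 7.02% a STAT5 site and 16.1% a receptor site. These matches are letters in a window and no measure of binding.

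In untreated WT livers, levels per kilobase of exon put Hsd3b5 first, at 188 ± 18.9 CPM per kb (SD, n = 5), followed by Hsd3b7 at 155 ± 22.1, Hsd11b1 at 121 ± 19.6, H6pd at 83.2 ± 11.6, Akr1d1 at 66.8 ± 16.9, Srd5a1 at 42.7 ± 6.97, Hsd3b3 at 35.3 ± 6.71 and Hsd3b2 at 21.7 ± 3.57. Single libraries of neighbours in this order overlapped, except that the ranges of Akr1d1 and Srd5a1 were separate. The order changed with treatment. In WT livers after Cort, Hsd11b1 was first at 185 ± 29.5 CPM per kb (n = 4) and Hsd3b5 last at 0.733 ± 0.607. The other 3 Hsd3b genes matched to the files, Hsd3b1, Hsd3b4 and Hsd3b6, held 0 to 3 counts in every library of every tissue. For Hsd3b4, whose transcript sequence is 100% shared with other genes in stretches of 50 bases, this cannot show that it was not expressed.

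Hsd3b5 varied most between liver groups. The 5 untreated WT livers lay at 247, 291, 292, 298 and 329 CPM, and the 3 floxed controls killed 1 h after Dex at 313, 328 and 333 CPM. After 3 weeks of Dex the WT livers stood at 13.5 and 20.2 CPM, and after 3 weeks of Cort the 4 WT livers stood at 0.266, 0.457, 1.56 and 2.25 CPM, which are 11 to 127 counts. Every WT liver treated for 3 weeks was thus below every untreated one. In E47KO, untreated livers ranged from 110.8 to 306 CPM with a median of 216 CPM, Dex livers were at 2.85, 10.9 and 22.0 CPM, and Cort livers were at 15.7, 17.6, 30.6 and 71.8 CPM. The lowest Cort E47KO liver was 6.96 times the highest Cort WT liver, and the highest was 24.6% of the untreated WT mean. Fitted log2 differences from untreated livers were −8.00 (SE 0.71) under Cort in WT and −2.66 (SE 0.52) in E47KO, and under Dex −4.12 (SE 0.79) in WT and −4.17 (SE 0.65) in E47KO. The Cort and Dex values share the untreated livers.

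Between genotypes, the log2 difference of Hsd3b5 (E47KO minus WT) was 4.85 (SE 0.74) in Cort livers and −0.47 (SE 0.22) in untreated livers, both as a description. The labels carry animal numbers, and within the 2 ranges of these numbers the Cort difference was 3.86 (2 E47KO and 3 WT) and 5.16 (2 and 1) on a log2(CPM + 0.5) scale. In Dex livers, which the choice of the gene did not use, the groups overlapped and the difference was −0.51 (SE 0.68, adjusted p = 0.999 in the edgeR quasi-likelihood test). It depended on the animal-number range, at −1.74 (2 and 1) in one and 0.684 (1 and 1) in the other, and leaving out 1 library at a time gave −1.28 to −0.0469. After 1 h of Dex, the E47LKO livers were at 125, 203 and 295 CPM, all below the 3 controls, with a difference of −0.64 (SE 0.25, adjusted p = 0.9998). It was −0.97 without E47LKO replicate 2 and −0.39 without E47LKO replicate 3.

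**Figure D1:**
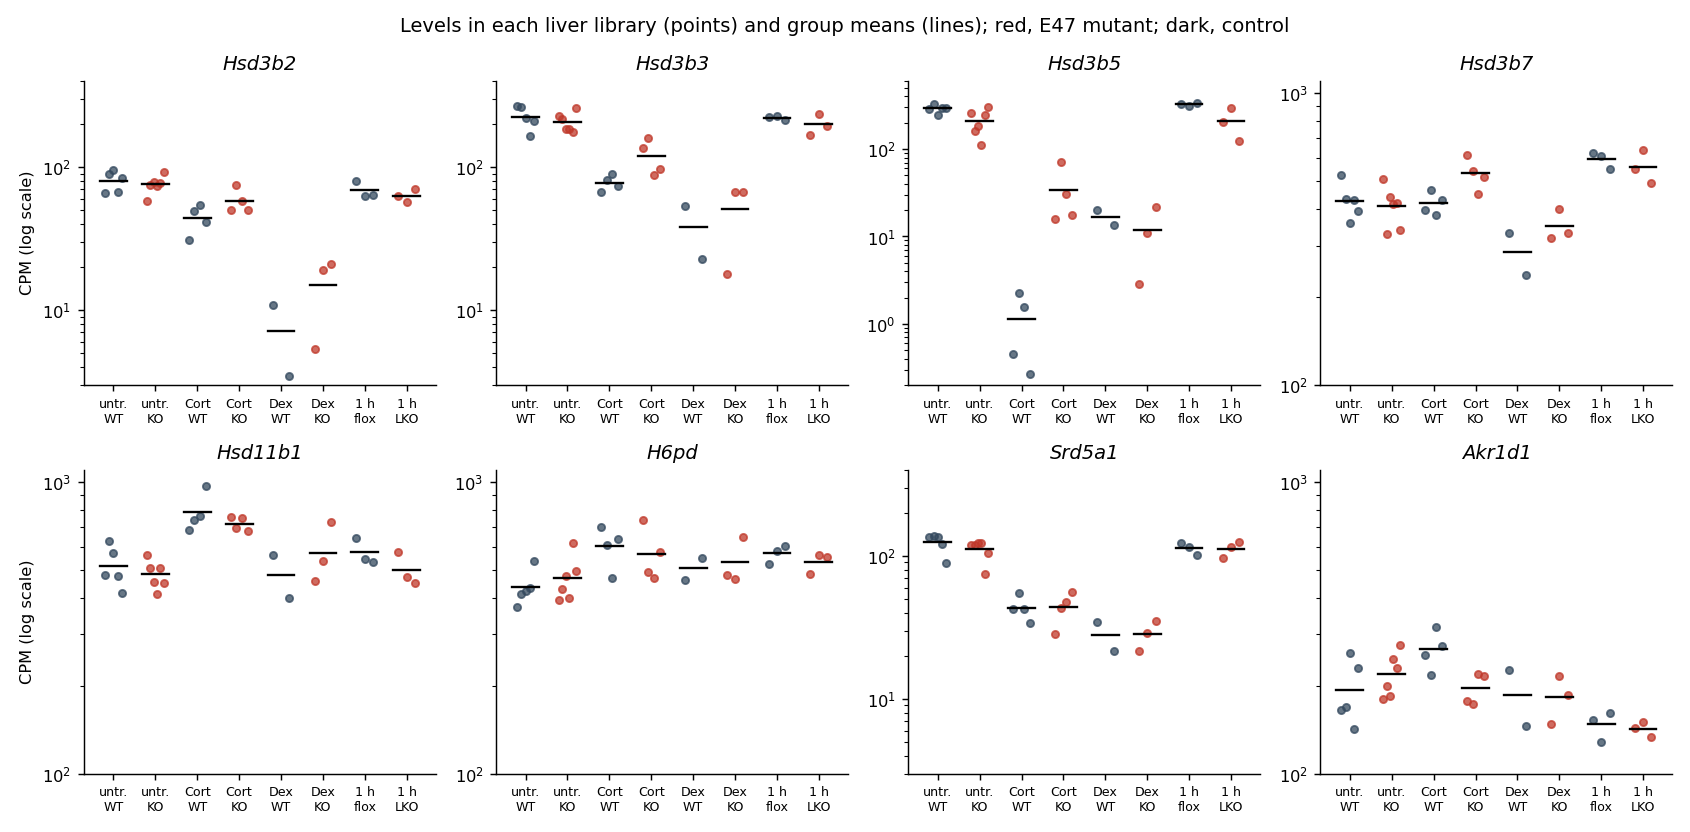
Level of each gene in every liver library, in CPM on a log axis (points, 1 per library, with group means as lines and red for E47 mutants), for untreated livers, 3 weeks of Cort, 3 weeks of Dex and 1 h after Dex. Hsd3b5 falls from 247 to 329 CPM in untreated WT livers to 0.266 to 2.25 CPM in Cort WT livers, whereas Hsd11b1, H6pd, Hsd3b7 and Akr1d1 stay between 128 and 969 CPM in all liver groups.

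The neighbouring genes Hsd3b2 and Hsd3b3, whose products belong to the same enzyme family, were also lower after treatment. Hsd3b3 lay at 164, 210, 222, 264 and 269 CPM in untreated WT livers, at 67.1, 73.9, 81.1 and 89.9 CPM after Cort and at 22.8 and 53.5 CPM after Dex. The groups did not overlap, and the log2 difference from untreated livers was −1.56 under Cort (SE 0.30, adjusted p = 0.000541) and −2.58 under Dex (SE 0.42, adjusted p = 8.46e-05). In E47KO, Hsd3b3 ranged from 177 to 259 CPM with a median of 200 CPM untreated, and was at 87.6, 96.6, 136 and 159 CPM after Cort and 17.8, 66.9 and 67.1 CPM after Dex. Again no treated liver reached an untreated one, with log2 differences of −0.82 (SE 0.28, adjusted p = 0.0256) and −2.05 (SE 0.33, adjusted p = 6.48e-05). The Cort call in E47KO was lost in 3 of 24 fits that each left out 1 liver, those without Cort E47KO replicates 3 or 4 or untreated E47KO replicate 6, with adjusted p of 0.0866, 0.0764 and 0.0608.

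Hsd3b2 lay at 66.1, 66.9, 83.4, 89.4 and 95.3 CPM in untreated WT livers, and at 30.9, 41.4, 49.4 and 54.3 CPM after Cort. After Dex it was at 3.47 and 10.9 CPM, the lowest of its liver groups. The differences from untreated WT were −0.89 (SE 0.29, adjusted p = 0.023) under Cort and −3.47 (SE 0.45, adjusted p = 7.22e-06) under Dex. The Cort call was lost without Cort WT replicates 1 or 4 or untreated WT replicate 3 (adjusted p = 0.0802, 0.0574 and 0.0566). In E47KO livers, Hsd3b2 ranged from 57.6 to 92.9 CPM untreated (median 76.4), stood at 50.04, 50.5, 57.7 and 74.9 CPM after Cort, which overlapped, and at 5.37, 19.0 and 20.9 CPM after Dex, which did not. The log2 differences were −0.41 (SE 0.28, adjusted p = 0.259) and −2.35 (SE 0.34, adjusted p = 2.06e-05).

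Srd5a1, which adds hydrogen to the A ring of corticosterone and testosterone in the 5α position, fell in all 4 comparisons of treated with untreated livers. Untreated WT livers lay at 89.8, 121, 136, 136 and 137 CPM, against 34.0, 42.2, 42.8 and 54.8 CPM after Cort and 21.5 and 34.5 CPM after Dex. Untreated E47KO livers ranged from 74.8 to 123 CPM with a median of 120 CPM, against 28.4, 43.0, 47.6 and 55.9 CPM after Cort and 21.8, 28.8 and 35.2 CPM after Dex. No treated liver overlapped the untreated livers of its genotype. The log2 differences were −1.54 (SE 0.21, adjusted p = 2.05e-05) and −1.37 (SE 0.20, adjusted p = 3.09e-05) under Cort in WT and E47KO, and −2.16 (SE 0.28, adjusted p = 8.94e-06) and −1.97 (SE 0.23, adjusted p = 1.64e-06) under Dex.

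Hsd11b1, the enzyme that reactivates glucocorticoid, was higher after Cort in both genotypes. In WT it lay at 417, 476, 480, 572 and 625 CPM untreated and at 682, 737, 762 and 969 CPM after Cort, without overlap, and the log2 difference was 0.59 (SE 0.15, adjusted p = 0.00425). In E47KO it ranged from 413 to 560 CPM untreated (median 479) and stood at 677, 693, 750 and 758 CPM after Cort, a difference of 0.56 (SE 0.14, adjusted p = 0.00392). After Dex it was at 400 and 561 CPM in WT and at 457, 534 and 727 CPM in E47KO, and the differences of −0.11 (SE 0.19, adjusted p = 0.7) and 0.24 (SE 0.15, adjusted p = 0.242) did not pass. H6pd, which feeds Hsd11b1 with NADPH, was at 372, 413, 422, 433 and 536 CPM in untreated WT livers and at 469, 609, 635 and 701 CPM after Cort, which overlapped. The difference of 0.45 (SE 0.16, adjusted p = 0.0352) passed, but it was lost in 7 of 24 fits without 1 liver (adjusted p up to 0.116), namely without Cort WT replicates 1, 2 or 4 or untreated WT replicates 1 to 4, and without the filter on low counts (adjusted p = 0.0551). In E47KO, H6pd ranged from 394 to 619 CPM untreated and stood at 468, 491, 574 and 739 CPM after Cort, and after Dex it was at 462 and 550 CPM in WT and 465, 478 and 645 CPM in E47KO. These ranges overlapped. In E47KO the difference under Cort was 0.26 (SE 0.15, adjusted p = 0.195), and under Dex it was 0.21 (SE 0.20, adjusted p = 0.449) in WT and 0.17 (SE 0.17, adjusted p = 0.464) in E47KO.

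Hsd3b7 and Akr1d1, the members that serve bile acid synthesis, moved by at most 0.60 on the log2 scale in either direction. Hsd3b7 lay at 359, 395, 430, 433 and 524 CPM in untreated WT livers, 383, 398, 430 and 464 CPM after Cort and 238 and 333 CPM after Dex. The Dex group lay below the untreated one, with a difference of −0.60 (SE 0.19, adjusted p = 0.0178), but without Dex WT replicate 2 the value was −0.38 with an adjusted p of 0.289, and the Cort difference was −0.06 (SE 0.14, adjusted p = 0.797). In E47KO, Hsd3b7 ranged from 329 to 510 CPM untreated (median 419), with 452, 518, 540 and 613 CPM after Cort and 320, 331 and 402 CPM after Dex. The Cort difference of 0.35 (SE 0.14, adjusted p = 0.0484) was lost in 16 of 24 fits without 1 liver, with adjusted p up to 0.169. These were 8 fits without a liver of the groups compared (Cort E47KO replicates 1, 2 and 4 and untreated E47KO replicates 2 to 6) and 8 without a liver of the other groups, which share the estimate of spread. The Dex difference was −0.23 (SE 0.15, adjusted p = 0.245). Akr1d1 lay at 142, 165, 170, 231 and 258 CPM in untreated WT livers, 218, 256, 273 and 319 CPM after Cort and 145 and 227 CPM after Dex, and ranged in E47KO from 181 to 276 CPM untreated (median 215.1), with 173, 177, 217 and 219 CPM after Cort and 149, 186 and 215.5 CPM after Dex. All these ranges overlapped. Its differences were 0.44 (SE 0.18, adjusted p = 0.0627) and −0.18 (SE 0.17, adjusted p = 0.427) under Cort in WT and E47KO, and −0.06 (SE 0.22, adjusted p = 0.861) and −0.27 (SE 0.19, adjusted p = 0.279) under Dex.

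**Figure D2:**
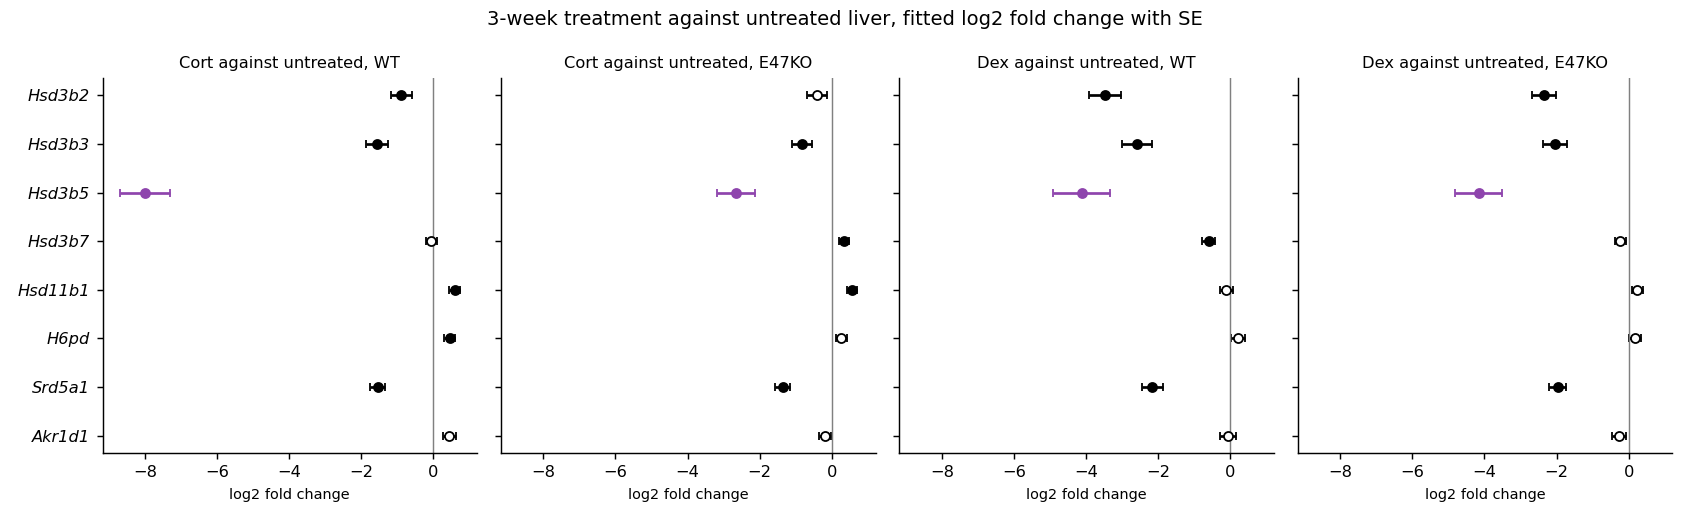
Fitted log2 fold change with its SE for each gene in 4 comparisons of treated with untreated livers, on a shared axis. Filled black points passed an adjusted p of 0.05, open points did not, and Hsd3b5 (purple) was not tested. Srd5a1 and Hsd3b3 are filled to the left of 0 in all 4 panels, and Hsd11b1 is filled to the right in the 2 Cort panels.

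Counted over the 7 tested genes, 5 passed under Cort in WT (2 higher and 3 lower), where 31.9% of 15976 genes did, and 4 under Cort in E47KO (2 and 2), where 37.9% did. Under Dex, 4 passed in WT, where 30.6% of genes did, and 3 in E47KO, where 37.0% did, all lower. The share in Dex E47KO livers was thus close to that of all genes. Without Cort WT replicate 1 or replicate 4, the count in WT was 3, and without Cort E47KO replicate 4 or untreated E47KO replicate 6 the count in E47KO was 2. Medians over the 7 tested genes, without Hsd3b5, were −0.06 and −0.18 under Cort in WT and E47KO and −0.60 and −0.27 under Dex, beside −0.0119, −0.0232, −0.0538 and −0.0274 over all genes.

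The effect of E47 loss was then compared within each experiment. None of the tested genes passed in any of the 6 experiments in edgeR, against backgrounds of 0.0288% of genes in untreated livers, 0.0274% in Cort livers, 0.00752% in Dex livers, 0% after 1 h, 0% in WAT and 0.0134% in muscle. Unadjusted p under 0.05 was met by 505, 1435, 409, 466, 699 and 590 genes in that order, and DESeq2 called 11, 270, 24, 6, 37 and 93 genes. Of the tested members, 3 were under an unadjusted 0.05 in Cort livers, 1 after 1 h (Hsd3b5) and 1 in muscle (Hsd11b1).

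In Cort livers the difference (E47KO minus WT) of Hsd3b3 was 0.61 (SE 0.19, adjusted p = 0.343), with its 4 E47KO livers from 87.6 to 159 CPM and WT livers from 67.1 to 89.9 CPM. Within the animal-number ranges it was 0.176 (2 and 3) and 1.13 (2 and 1). Hsd3b2 differed by 0.39 (SE 0.19, adjusted p = 0.543), Hsd3b7 by 0.33 (SE 0.11, adjusted p = 0.378) and Akr1d1 by −0.45 (SE 0.13, adjusted p = 0.301). Hsd11b1, H6pd and Srd5a1 differed by −0.15 (SE 0.12), −0.10 (SE 0.18) and −0.01 (SE 0.21). In each of these 7 genes at least 1 E47KO liver lay inside the WT range or 1 WT liver inside the E47KO range. The groups of Hsd3b5 did not overlap, but that gene was chosen by these values. In untreated livers the 7 differences lay between −0.16 (SE 0.15) for Srd5a1 and 0.18 (SE 0.17) for Akr1d1, all with overlap. In Dex livers Hsd3b2 had the largest fitted difference, 1.05 (SE 0.66, adjusted p = 0.999). Leaving out 1 library gave 0.46 to 2.12, and within the animal-number ranges the value was −0.096 (2 and 1) and 2.43 (1 and 1). After 1 h of Dex the fitted values ran from −0.64 for Hsd3b5 to −0.01 (SE 0.12) for Srd5a1. Those of Hsd3b2, Srd5a1 and Akr1d1 changed sign when 1 library was left out. The groups overlapped for every member except Hsd3b5, and the share of all genes without overlap was not counted in any experiment.

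Whether the genotype difference itself changed with treatment was tested in 1 fit over 24 livers. For Cort minus untreated, 0 of 7 genes passed, where 0.00626% of all genes did, and the values ran from −0.63 (SE 0.25, adjusted p = 0.713) for Akr1d1 to 0.74 (SE 0.39, adjusted p = 0.791) for Hsd3b3. For Dex minus untreated and for Dex minus Cort, 0 of 7 passed, beside 0% of all genes in each. Unadjusted p under 0.05 was met by 1026, 599 and 436 genes in these 3 contrasts, of which 1, 1 and 0 were members, and DESeq2 called 14, 2 and 1 genes. The untested value of Hsd3b5 was 5.34 (SE 0.75) for Cort minus untreated, −0.05 (SE 0.82) for Dex minus untreated and −5.38 (SE 0.91) for Dex minus Cort.

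**Figure D3:**
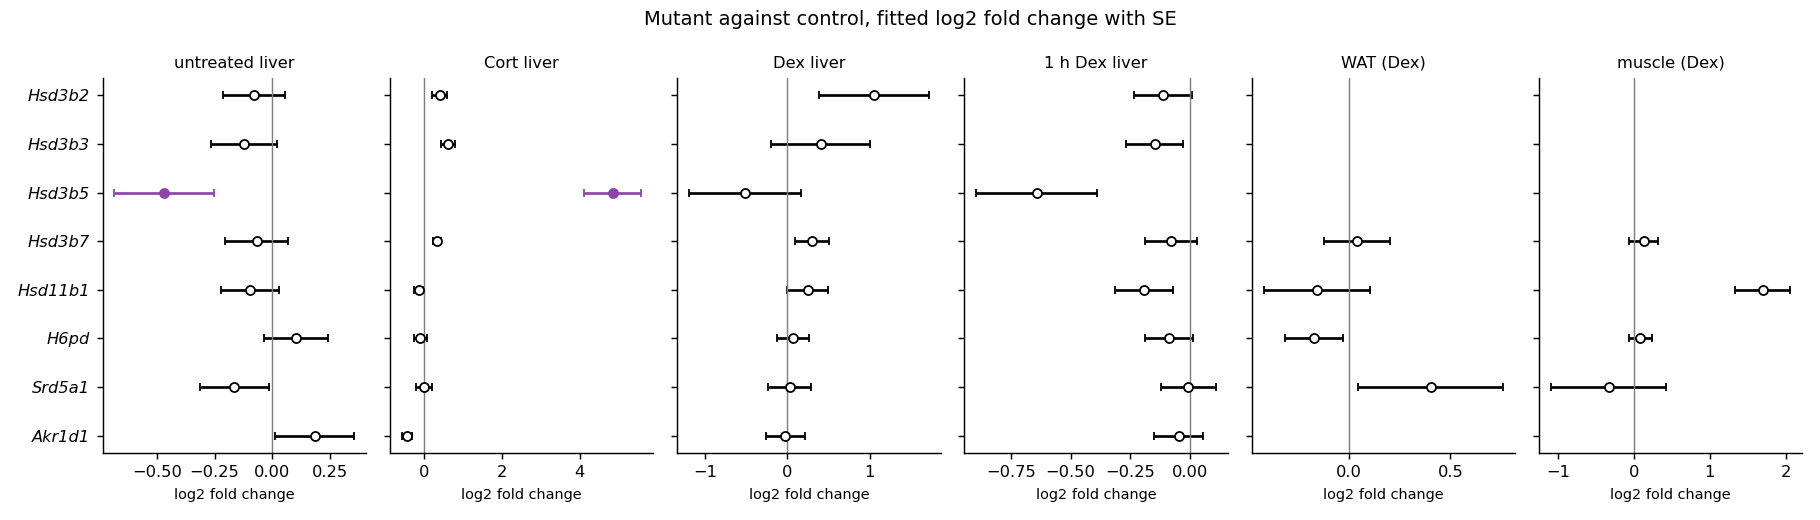
Fitted log2 fold change of E47 mutant against control with its SE in 6 experiments, with an axis of its own in each panel. Open points did not pass an adjusted p of 0.05, purple points (Hsd3b5 in untreated and Cort livers) were not tested, and genes below the filter in WAT and muscle are left out. Hsd3b5 stands at 4.85 in Cort livers, while the other 7 genes lie between −0.45 and 0.61 there.

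Levels of the Hsd3b neighbours also moved together from mouse to mouse. Per kilobase of exon, Hsd3b5 made up 72.5 to 81.2% of the summed level of Hsd3b2, Hsd3b3 and Hsd3b5 in untreated WT livers and 59.5 to 76.7% in untreated E47KO livers. Its share was 0.750 to 5.29% in Cort WT livers, 22.4 to 50.7% in Cort E47KO livers, 53.5 to 66.0% in Dex WT livers and 30.3 to 46.8% in Dex E47KO livers. Under Cort the share was lower in all 4 WT livers than in all 4 E47KO livers. That is a description only, because Hsd3b5, which enters the share, was chosen by these Cort levels. Under Dex the share was higher in both WT livers than in the 3 E47KO livers. As deviations from group means in log2 CPM over the 24 livers of 3 experiments, Hsd3b5 correlated with Hsd3b2 (r = 0.65, rho = 0.68) and Hsd3b3 (r = 0.61, rho = 0.57), and without the 2 livers farthest from the median of Hsd3b5 the r was 0.58 and 0.50. Among 15976 genes these ranked 20 and 45. The 5 most similar genes were Ces3a (a carboxylesterase, r = 0.74), Mup3 (a major urinary protein, r = 0.74), Fam213b (r = 0.71), Sec61g (a subunit of the channel for protein entry into the endoplasmic reticulum, r = 0.71) and P4hb (a protein disulfide isomerase, r = 0.70), and without the 2 farthest livers their r lay between 0.62 and 0.65. Srd5a1 (r = 0.38), Hsd11b1 (r = 0.20), Hsd3b7 (r = 0.08), Akr1d1 (r = 0.05) and H6pd (r = −0.13) were less similar. Points of 1 experiment share library preparation and depth, and whether reads shared between the Hsd3b genes touched either axis was not tested. The genes that shared most stretches of 50 bases with Hsd3b5 were Gm10681, Hsd3b4 and Gm4450.

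**Figure D4:**
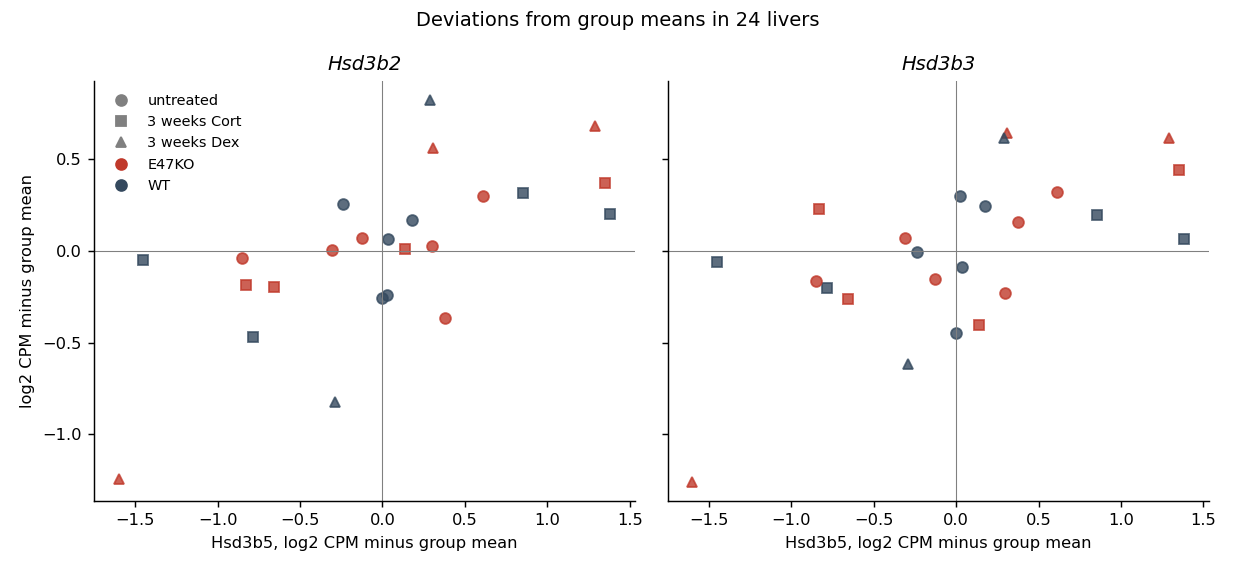
Deviations from group means (log2 CPM) of Hsd3b2 and Hsd3b3 against those of Hsd3b5, 1 point per liver for 24 livers, with shapes for treatment and red for E47KO. Both panels slope upwards (r = 0.65 and 0.61), and Dex E47KO replicate 1 lies lowest on both axes.

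Outside the liver the genes split. Hsd11b1 stood at 629 and 862 CPM in WT WAT and 536 and 800 CPM in E47KO WAT, and H6pd at 715 and 752 CPM in WT and 604 and 698 CPM in E47KO. The ranges overlapped those of the livers of the same treatment (400 to 727 CPM for Hsd11b1 and 462 to 645 CPM for H6pd, scaled within each tissue), in depots whose hepatocyte marker sum was at most 9883 CPM. Hsd3b7 lay between 70.9 and 91.9 CPM in WAT, and Srd5a1 between 0.757 and 1.31 CPM. Hsd3b5 had 0 counts in 4 of 4 WAT libraries, where 3 counts would be 0.0698 to 0.087 CPM, and Hsd3b2 and Hsd3b3 had at most 2 counts. In muscle H6pd lay between 67.8 and 89.7 CPM, Hsd3b7 between 6.73 and 10.1 CPM and Srd5a1 at up to 0.296 CPM, Hsd3b3 had at most 6 counts, Hsd3b2 at most 2, and Hsd3b5 had 1 count in 1 of 5 libraries. Akr1d1 had at most 9 counts in any WAT or muscle library. After the filter on low counts, 4 of 8 genes (Hsd3b7, Hsd11b1, H6pd and Srd5a1) could be tested in each of these tissues.

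In WAT none differed between genotypes, with values of −0.17 (SE 0.14) for H6pd, −0.16 (SE 0.26) for Hsd11b1, 0.04 (SE 0.16) for Hsd3b7 and 0.40 (SE 0.36) for Srd5a1, at adjusted p of 0.978 to 0.994. All E47KO values of H6pd were lower and all of Srd5a1 higher than in WT, with 2 libraries a group. In muscle Hsd11b1 was at 3.39 and 6.54 CPM in WT and at 13.03, 13.07 and 22.1 CPM in E47KO, without overlap. The log2 difference was 1.70 (SE 0.36, adjusted p = 0.594 in edgeR), and it was 1.80 (2 and 1) and 1.68 (1 and 1) within the animal-number ranges. DESeq2 gave 1.69 with an adjusted p of 0.000603 and a fit with the animal-number range gave 1.86 with an adjusted p of 0.0485, so the call depends on the method. Adipocyte markers moved with it: the 10 markers, of which none was at 0, summed to 652 to 701 CPM in WT muscle and 989 to 1218 CPM in E47KO muscle, with Adipoq at 5.05 to 19.4 against 47.8 to 65.6 CPM and Plin1 at 1.07 to 3.56 against 11.8 to 16.9 CPM. Their part in the Hsd11b1 value was not tested. H6pd, Hsd3b7 and Srd5a1 differed in muscle by 0.08 (SE 0.15), 0.13 (SE 0.19) and −0.33 (SE 0.76).

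**Figure D5:**
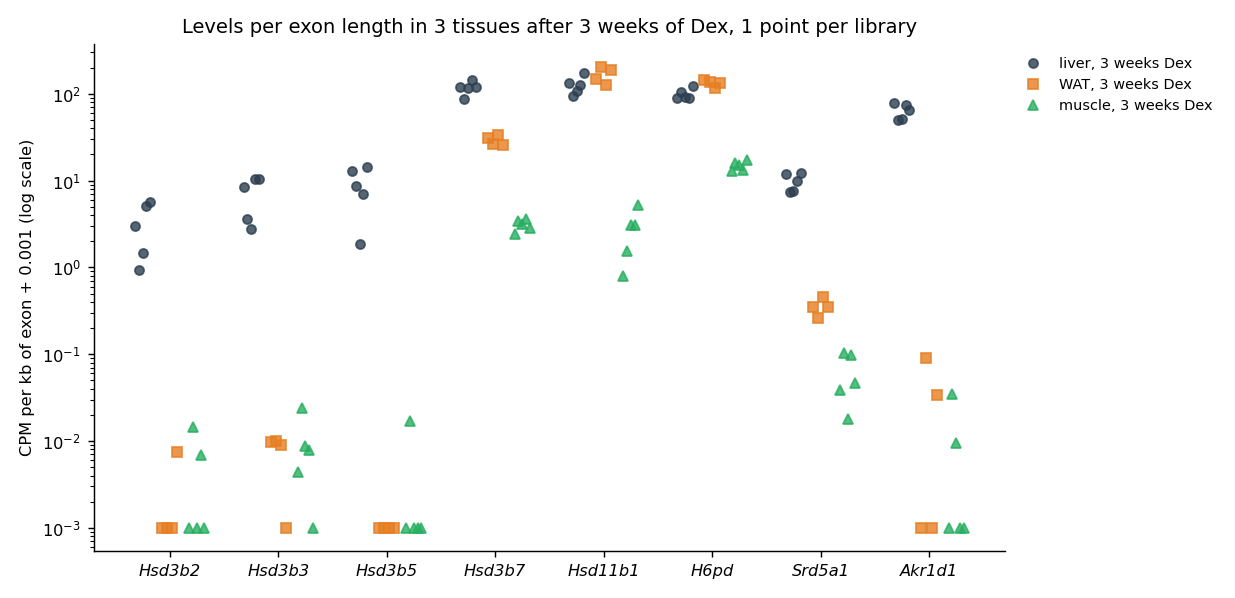
Level per kilobase of exon (CPM per kb + 0.001, log axis) of each gene in every library of the 3 tissues taken after 3 weeks of Dex (circles, liver; squares, WAT; triangles, muscle). Ranges of Hsd11b1 and H6pd in WAT overlap those in liver, and points at 0.001 are libraries with 0 counts, such as all 4 of Hsd3b5 in WAT.

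Other genes of the same pathways were counted from lists of known function. Over all genes, 15.7% rose and 16.2% fell under Cort in WT, 19.7% and 18.3% in E47KO, 14.7% and 15.9% under Dex in WT, and 18.4% and 18.6% in E47KO. Of 17 measured genes of glucocorticoid activation, clearance, transport and sensing, which include Hsd11b1, H6pd, Srd5a1 and Akr1d1, 4 rose and 4 fell under Cort in WT, 2 and 6 in E47KO, 3 and 6 under Dex in WT, and 3 and 8 in E47KO. Akr1c6, a ketosteroid reductase, fell, with a log2 difference of −0.98 (SE 0.24, adjusted p = 0.00362) under Cort in WT and of −2.002 (SE 0.33, adjusted p = 9.29e-05) and −1.69 (SE 0.27, adjusted p = 4.78e-05) under Dex in WT and E47KO. Nr3c2, the mineralocorticoid receptor, which also binds corticosterone, fell as well, by log2 differences of −0.75 (SE 0.17, adjusted p = 0.00235) under Cort in WT and −1.36 (SE 0.23, adjusted p = 0.000144) and −1.58 (SE 0.19, adjusted p = 2.64e-06) under Dex. None of these genes passed between genotypes in any liver experiment. The list's called shares were 47.1%, 47.1%, 52.9% and 64.7% in that order, beside 31.9%, 37.9%, 30.6% and 37.0% of all genes, and its medians lay between −0.29 and −0.11, beside medians of all genes between −0.0538 and −0.0119.

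Of 15 measured 17β-hydroxysteroid dehydrogenases and Akr1c ketosteroid reductases, which convert sex steroids, 0 rose and 7 fell under Cort in WT, 0 and 6 in E47KO, 1 and 8 under Dex in WT, and 3 and 8 in E47KO. These are 46.7%, 40%, 60% and 73.3% of the list, beside the same shares of all genes. Akr1c19 changed by −2.43 (SE 0.29) and −1.79 (SE 0.23) under Dex in WT and E47KO on the log2 scale, and Akr1c13 by −1.21 (SE 0.16) and −1.14 (SE 0.13), all with adjusted p of at most 8.51e-06. Akr1c6 and Akr1c14 stand in both lists. Of 14 measured genes of bile acid synthesis, Hsd3b7 and Akr1d1 among them, 1 rose and 4 fell under Cort in WT, 2 and 4 in E47KO, 1 and 5 under Dex in WT, and 1 and 3 in E47KO. These shares (35.7%, 42.9%, 42.9% and 28.6%) were near those of all genes, and the last was below it. Cyp39a1, an oxysterol hydroxylase, rose by 2.32 (SE 0.28) and 1.63 (SE 0.26) under Cort and by 4.31 (SE 0.32) and 3.64 (SE 0.28) under Dex, in WT and E47KO. Cyp7b1, the hydroxylase of the alternative pathway and a male-biased gene, fell, with log2 differences of −3.29 (SE 0.38) and −2.46 (SE 0.36) under Cort in WT and E47KO, and of −1.13 (SE 0.38, adjusted p = 0.023) under Dex in E47KO.

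Because Hsd3b5 is itself a gene of male-typed liver, lists of sex-biased liver genes without it were counted as well. All 20 male-biased genes were measured, and 18 fell and 0 rose under Cort in WT, 16 and 0 in E47KO, against 7 that fell and 2 that rose under Dex in WT and 8 and 2 in E47KO. These are 90%, 80%, 45% and 50% of the list. Their median log2 differences were −2.06 and −1.82 under Cort and −0.76 and −1.02 under Dex. Mup7 and Mup12, which encode major urinary proteins, fell, with log2 differences of −6.89 (SE 0.67) and −6.32 (SE 0.68) under Cort in WT and −3.88 (SE 0.57) and −4.12 (SE 0.59) in E47KO, and they belong to a family of near-identical copies whose reads may be split. Of 17 measured female-biased genes, 9 rose and 0 fell under Cort in WT, 5 and 3 in E47KO, 5 and 0 under Dex in WT, and 7 and 1 in E47KO. The called shares were 52.9%, 47.1%, 29.4% and 47.1%, of which the third was close to the 30.6% of all genes, and the medians were 2.65, 1.53, 0.36 and 0.64. Cux2, a transcription factor of female liver, rose on the log2 scale by 4.74 (SE 0.74, adjusted p = 8.07e-05) and 2.52 (SE 0.64, adjusted p = 0.00429) under Cort in WT and E47KO. No gene of either list passed between genotypes in any liver experiment. Medians of mutant minus control for the male-biased list were −0.323 in untreated, 0.514 in Cort, −0.312 in Dex and −0.516 in 1 h Dex livers. Those of the female-biased list were 0.898, −1.205, 0.156 and 1.51 in that order, over 8, 14, 12 and 8 measured genes. The medians of all genes lay between −0.00529 and 0.00343. These genotype medians were not tested, nor was whether the lists differed between Cort and Dex.

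Markers of other organs that express Hsd3b genes were counted too. The 10 kidney markers summed to at most 1.26 CPM in liver, and at least 5 of the 10 were at 0 in each group. The 10 adrenal markers summed to 31.2 to 137 CPM in liver, with 2 to 6 of the 10 at 0 in each group and sums of 64.9 to 137 CPM in untreated WT against 31.2 to 46.4 CPM in Cort WT livers. The 12 markers of Leydig cells, testis and epididymis summed to 3.99 to 711 CPM, with 1 of 12 above 1 CPM, the steroid hydroxylase Cyp17a1 (494 to 711 CPM in Dex WT livers). Macrophage markers were lower in Cort livers, at 138 to 178 CPM in WT and 115 to 152 CPM in E47KO against 176 to 481 and 205 to 321 CPM untreated, and B cell markers were at 1.84 to 3.97 and 1.04 to 4.42 CPM against 10.5 to 36.0 and 3.56 to 13.4 CPM. In Dex livers, macrophage markers were at 227 to 240 CPM in WT and 193 to 271 CPM in E47KO, and B cell markers at 3.27 to 8.25 and 0.675 to 0.920 CPM. T cell markers were at 0.315 to 1.01 CPM in Cort WT and 0.955 to 1.24 CPM in Cort E47KO livers against 3.10 to 6.26 and 3.46 to 6.35 CPM untreated, and at 3.17 to 11.1 and 2.38 to 3.04 CPM after Dex. Acinar pancreas markers had 1 of 12 above 1 CPM and 6 to 9 at 0 in each of these groups. They summed to 4.01 to 4.69 and 4.67 to 8.10 CPM after Cort and 6.05 to 7.24 and 5.32 to 6.84 CPM after Dex. The untreated sums were 22.6 to 40.1 and 13.8 to 30.2 CPM. The part of all these markers in the levels of the 8 genes was not tested.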

How the data were processed

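Poly(A) RNA of liver, WAT and muscle of male mice was sequenced, and per the labels the authors used unstranded kits for the 3-week Dex samples and stranded kits for the others. Per the study's methods, the authors aligned reads to mm10 with STAR 2.4.2a, and the labels also name HTSeq. The 3-week Dex files hold 1 count column and 46078 genes, the others 3 columns and 45706 genes. Comparisons of Dex with untreated livers have this difference in them too. The deposited files hold unnormalized read counts of each gene, with a separate file for every sample. The files also hold reads not assigned to a gene (20.8 to 36.8% of entries), which stayed out. The 6 deposited tables of the authors' own DESeq2 comparisons (log2 fold changes, p-values and scaled counts) were not used.

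The unstranded column was used for all 39 libraries, because the 8 Cort libraries, although labelled stranded, split 50.05 to 50.1% between strands (96.9 to 97.7% in the other 17 stranded libraries). Genotypes were compared within each experiment with edgeR 4.0.16 (R 4.3.3): TMM factors, filterByExpr, quasi-likelihood F test, genotype as the only term. Treatments and differences of genotype effects were contrasts of group means in 1 fit over 24 livers. P-values were two-sided and Benjamini-Hochberg adjusted over all genes tested, with a threshold of 0.05, and SE was taken from the F statistic. CPM used TMM factors within a tissue. Symbols came from the mm10 annotation (45143 of 46078 identifiers), and 208 of 211 listed symbols matched.

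The members and lists were chosen with earlier results of these data known. Named genes were the 8 members and, among called genes of a list in a comparison, those with the lowest adjusted p (at most 3), of which some are not reported here. No label says that the samples of a group came from separate litters or days, so p-values measure the spread between these mice. None of 53 replicate pairs looked like 1 library deposited again (chi-square of 14.5 to 230 for each degree of freedom). Numbers of replicates were not taken to pair the samples, since the correlation of same-numbered deviations was not above 0.1 for every pair in any experiment. Deviations in a group of 2 mirror each other, so the check cannot exclude pairing. In simulated counts for the Cort comparison (14408 genes), 66, 67 and 67 genes were changed by 1, 2 and 3 on the log2 scale. Of these, 59.1%, 89.5% and 95.5% were recovered, and 4.68% of the calls were false. The measured Cort comparison called 4 genes, so these shares need not hold where fewer genes change. Floors and counting intervals cover counting error only. Alternatives were RLE factors, no filter, DESeq2 1.42.0, the strand column, animal-number range, replicate block and leaving out each library. For untreated livers the range was that of the library numbers (1 E47KO and 2 WT, and 5 and 3). Mean WT Hsd3b3 in these ranges was 266.5 and 198.9 CPM. The strand column was the larger strand of each library. In Cort libraries, which split evenly between strands, it held only part of the gene reads, so it set unlike counts against untreated livers.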

Additional observations from a re-analysis of the deposited data

How the results depend on the processing

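Counts of members that passed stayed within 1.5 times of the reported value in 71 of 73 fits with other settings and 203 of 207 that left out 1 library. In muscle the count was 1 with DESeq2 and 1 with the animal-number range as a factor, against 0 (leaving out 1 library gave 0). Leaving out 1 library gave 3 to 6 members for Cort against untreated in WT and 2 to 4 in E47KO. No member changed direction past the threshold. Calls gained elsewhere were Akr1d1 under Cort in WT (DESeq2, adjusted p = 0.0455, animal-number range, 0.0471, and 4 fits without 1 liver) and Hsd3b7 under Dex in E47KO (animal-number range, −0.39, adjusted p = 0.0209). Hsd3b7 under Cort in E47KO was lost without a filter (adjusted p = 0.0907), with the strand column (0.0552) and with the animal-number range (0.0994).

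Replicate numbers were not shown to pair the mice. With the number as a replicate block, H6pd under Cort in E47KO passed (0.25, adjusted p = 0.0362), Hsd3b5 in Dex livers was −1.49 by genotype, and no other call was changed. WAT groups share 1 number, so no paired analysis was possible there.

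Counts over all genes moved more. By genotype, no filter, DESeq2, the animal-number range and the block gave 62, 24, 0 and 0 genes in Dex livers (reported 1) and 13, 270, 67 and 29 in Cort livers (4). In untreated livers no filter, DESeq2 and the block gave 8, 11 and 2 (4), and in muscle no filter, DESeq2, the range and the block gave 37, 93, 4 and 1 (2). After 1 h no filter and DESeq2 gave 1 and 6 and in WAT 6 and 37 (0 each). For differences of genotype effects, DESeq2, the range and the block gave 14, 10 and 2 genes for Cort minus untreated (1), DESeq2 and the range 2 and 2 for Dex minus untreated (0), and no filter, DESeq2, the range and the block 1, 1, 1 and 2 for Dex minus Cort (0), and without Dex WT replicate 1 the counts for Dex minus untreated and Dex minus Cort were 24 and 14. Without WAT E47KO replicate 3 the WAT count was 333, and without Dex WT replicate 2 the count for Dex against untreated in WT was 2516 (4881). The strand column held unlike counts in Cort and untreated libraries, so it is no check of Cort against untreated livers. With it, 3981 of 6741 calls were higher under Cort in WT (2508 of 5094) and 4467 of 7455 in E47KO (3141 of 6058). The causes were not tested. Depth limits only genes with few counts, here Hsd3b2, Hsd3b3, Hsd3b5 and Akr1d1 in WAT and muscle and Srd5a1 in muscle. With 2 or 3 mice in a group, the simulated Dex liver comparison recovered 27.3% of 66 genes changed by 1 on the log2 scale. Of its calls, 10.9% were false.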

Other observations

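Genes that attach sulfate or glucuronic acid to steroids changed beside the 8 enzymes. Of 13 measured conjugation genes, 3 rose and 7 fell under Cort in WT livers, 2 and 5 in E47KO, 1 and 7 under Dex in WT and 1 and 5 in E47KO, with medians of −0.44, −0.29, −0.59 and −0.40 (all genes, −0.0119, −0.0232, −0.0538 and −0.0274). These are 76.9%, 53.8%, 61.5% and 46.2% of the list, beside 31.9%, 37.9%, 30.6% and 37.0% of all genes. Sult1e1, the estrogen sulfotransferase, rose on the log2 scale by 7.41 (SE 0.76) and 4.96 (SE 0.67) under Cort and by 10.64 (SE 0.85) and 10.04 (SE 0.75) under Dex in WT and E47KO, with adjusted p of at most 1.22e-05 in edgeR. Ugt2b38, a glucuronosyltransferase that also stands among the male-biased genes, had a log2 difference of −4.33 (SE 0.60, adjusted p = 1.54e-05) under Cort in E47KO, and Ugt2b1 one of −1.59 (SE 0.17, adjusted p = 2.11e-06) under Cort in WT. These 2 genes also passed under Dex in WT and E47KO. Ugt2b38 differed there by −4.10 (SE 0.83) and −3.765 (SE 0.68), and Ugt2b1 by −1.34 (SE 0.22) and −1.15 (SE 0.185). Cyp17a1, a steroid hydroxylase of Leydig cells that mouse liver also expresses, rose by 3.14 (SE 0.59, adjusted p = 0.000454) under Cort in WT and by 5.39 (SE 0.68, adjusted p = 5.61e-06) and 3.84 (SE 0.58, adjusted p = 2.93e-05) under Dex in WT and E47KO. It did not pass under Cort in E47KO, where 0 of 2 tested genes of its marker list did. None of these genes passed between genotypes.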
